A study of Mus musculus with 8 samples.

Results

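Imprinted genes are genes expressed mainly from the maternal or mainly from the paternal chromosome. The allele used is set by DNA methylation at control regions, which is laid down in the germ line and kept in the embryo, and a cluster often holds a long noncoding RNA that silences its neighbours on the same chromosome. In cultured pluripotent cells these marks are known to be lost or gained during culture, and the maternal RNAs of the Dlk1-Dio3 cluster are a known example. The 42 genes described here are a fixed list of imprinted genes that leaves out the growth regulators around Plagl1. All 42 symbols were found in the gene column of the deposited tables, among 24279 genes, and they were grouped into 18 clusters by their position.

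The 8 RNA sequencing libraries came from mouse embryonic stem cells, 2 for each of 4 groups, collected 6 days after withdrawal of leukemia inhibitory factor (LIF), the cytokine that keeps such cells undifferentiated. The group noDox is labelled AGO1-4-/-, a knockout of the Argonaute genes whose proteins load microRNAs. DOX is the same genotype with AGO2 restored through doxycycline, NLS carries only AGO2 fused to a nuclear localization signal (NLS-AGO2), and E14 is the wild-type line. All 4 groups share 1 cell description, a line with doxycycline-inducible HA-Flag-AGO2, and 1 protocol with 2.5 µg/ml doxycycline a day and passages 8 to 15, noDox and E14 included. Which promoter drives the transgene, whether each line is 1 clone and whether the libraries of a group come from separate cultures are not given in the sources used here. The deposited tests therefore measure only the spread between libraries, which may be technical. By its title, the study concerns nuclear silencing by microRNAs during differentiation.

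The tables named for DOX and for E14 were identical in 24279 of 24279 lines, so their values belong to 1 of these groups only, called DOX/E14 here. Ago1 was at 0.0159 RPKM in noDox and 16.7 RPKM in DOX/E14, a difference that did not pass. In NLS it was at 0.861 RPKM and was not tested. By its label DOX lacks Ago1, but a difference that did not pass does not settle which group the values belong to. Ago2 was at 26.1 RPKM in noDox and 32.6 in DOX/E14, and at 26.8 and 35.7 RPKM in the NLS table, and passed in neither. Ago3 fell from 7.56 to 3.001 RPKM in DOX/E14 and rose from 7.76 to 14.5 RPKM in NLS, and Ago4 was at 0.323 RPKM or less. Ago2 and Ago3 RNA was thus counted in noDox, which is labelled a knockout of all 4 genes, and RNA levels do not show whether protein was made. The names noDox, DOX/E14 and NLS below therefore stand for the groups as labelled, and every direction is relative to the group labelled noDox. Each value is the authors' pooled RPKM for a group (reads scaled by transcript length and by library size), so the spread between libraries cannot be given and whether libraries overlap cannot be seen. A gene is said to rise or fall where q was under 0.05 in the authors' deposited table, whose Cuffdiff test was adjusted over all tested genes of that table. Each log2 fold carries the SE implied by its deposited test statistic. Because a pooled sample averages over its cells, fewer cells with a transcript and less of it per cell cannot be told apart. All 10 embryonic stem cell markers of the list were at 1 RPKM or more in every group, and their sum was 4425 RPKM in noDox, 2163 for DOX/E14 and 3677 for NLS. Without Dppa5a, the highest of them, the sums were 1870, 1519 and 1738 RPKM. Of the 10, 3 rose in DOX/E14 (Lin28a, from 1.35 to 248 RPKM, Sall4 and Utf1) and 5 fell (Nanog, Esrrb, Dppa5a, Sox2 and Zfp42). In NLS 1 of 9 tested rose and 0 fell. Fibroblast markers summed to 9.16, 21.2 and 13.7 RPKM in that order, with Lum at 0 in all 3 groups, neural markers to 64.6, 119 and 93.96, trophoblast markers to 172, 449 and 202 (22.8, 22.2 and 24.6 without the epithelial keratins Krt8 and Krt18) with Prl3d1 at 0 in all, and extraembryonic endoderm markers to 12.1, 20.5 and 29.9 RPKM with Afp at 0 in all. At 1 RPKM or more stood 1, 4 and 2 of 10 fibroblast, 4, 7 and 4 of 10 neural, 4, 7 and 7 of 10 trophoblast and 3, 4 and 4 of 10 extraembryonic endoderm markers. Among the trophoblast markers without the keratins, Tfap2c was highest in every group, and it fell in DOX/E14 from 18.4 to 10.8 RPKM. Eomes and Ascl2 rose there. The part of cells with these markers in the results below was not tested.

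Of the 42 genes, 34 were expressed highly enough to be tested, in both comparisons. In DOX/E14 10 rose, 13 fell and 11 did not pass, or 67.6% changed beside 55.5% of the 12382 genes tested in that table. Falls made up 38.2% of the tested members (background 28.3%) and rises 29.4% (background 27.2%). Members of the same cluster are not independent in these counts. In NLS 1 of 34 rose and 0 fell (2.94% changed beside 8.36% of 12936 tested genes, of which 3.97% rose and 4.39% fell), with 5 members at an unadjusted Cuffdiff p under 0.05. The median absolute log2 fold of the tested members was 0.86 in DOX/E14 and 0.27 in NLS, and that of all tested genes was 0.72 and 0.33. Levels in noDox ran from 3.22 RPKM (Airn) to 229 RPKM (Cd81), with a median of 16.5 RPKM over the tested members, against medians of 13.3 in DOX/E14 and 19.7 in NLS.

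**Figure D1:**
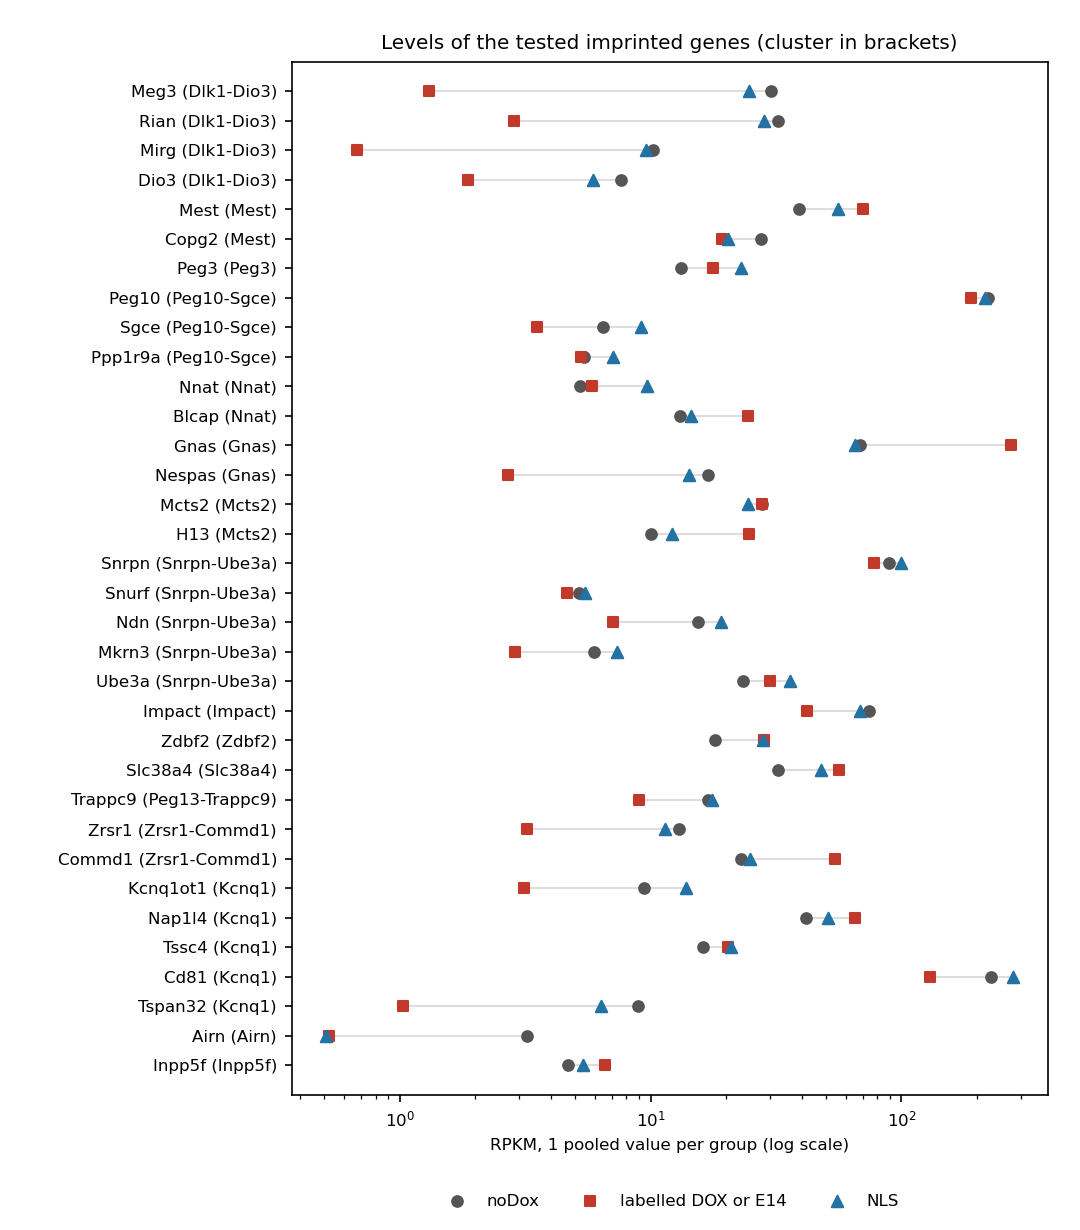
Pooled RPKM (log scale) of the 34 tested imprinted genes in noDox, DOX/E14 and NLS, 1 point per group, with noDox taken from the DOX/E14 table. Meg3, Rian and Mirg lie far to the left in DOX/E14 alone (1.30, 2.85 and 0.673 RPKM), whereas Gnas lies far to the right there (274 RPKM).

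The 3 largest falls of any member belonged to the Dlk1-Dio3 cluster on chromosome 12. Its maternal chromosome normally makes a chain of noncoding RNAs: Meg3, a long noncoding RNA, Rian, the host of many small nucleolar RNAs, and Mirg, the host of many microRNAs. Its paternal chromosome makes the proteins Dlk1, Rtl1 and Dio3. The starts of its 4 members are shown because all 4 fell in DOX/E14. Each line gives 250 bases before and 50 after a start that RefSeq annotates (GRCm38.p6), in lower case. Capitals mark TGCCGC or its reverse complement GCGGCA, the hexamer bound by ZFP57, a zinc-finger protein that protects imprints.
Meg3, chr12:109540746-109541045, plus strand: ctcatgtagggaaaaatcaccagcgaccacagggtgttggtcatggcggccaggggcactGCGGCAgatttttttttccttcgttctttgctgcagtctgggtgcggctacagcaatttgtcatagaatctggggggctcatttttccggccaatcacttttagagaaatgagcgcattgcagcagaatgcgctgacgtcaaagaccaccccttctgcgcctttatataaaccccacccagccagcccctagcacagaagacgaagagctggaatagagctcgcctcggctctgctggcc
Rian, chr12:109603695-109603994, plus strand: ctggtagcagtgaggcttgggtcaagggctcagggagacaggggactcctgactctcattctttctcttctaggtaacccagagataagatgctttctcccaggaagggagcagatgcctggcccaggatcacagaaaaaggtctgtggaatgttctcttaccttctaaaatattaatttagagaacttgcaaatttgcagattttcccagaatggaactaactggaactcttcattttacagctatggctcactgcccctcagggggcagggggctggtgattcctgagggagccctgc
Mirg, chr12:109734731-109735030, plus strand: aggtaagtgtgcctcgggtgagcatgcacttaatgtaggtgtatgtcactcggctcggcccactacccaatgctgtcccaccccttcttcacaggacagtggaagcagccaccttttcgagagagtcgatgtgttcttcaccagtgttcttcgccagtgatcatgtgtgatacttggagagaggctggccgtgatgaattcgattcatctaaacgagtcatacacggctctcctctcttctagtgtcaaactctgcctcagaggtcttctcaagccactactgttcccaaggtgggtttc
Dio3, chr12:110278980-110279279, plus strand: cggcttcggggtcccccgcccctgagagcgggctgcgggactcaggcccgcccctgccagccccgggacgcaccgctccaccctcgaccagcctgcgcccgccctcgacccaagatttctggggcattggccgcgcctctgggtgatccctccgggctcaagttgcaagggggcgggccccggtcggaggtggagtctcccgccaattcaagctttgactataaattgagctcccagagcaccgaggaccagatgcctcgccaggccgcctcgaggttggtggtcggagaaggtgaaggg

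The Meg3 window shown held the hexamer once and 13 CG dinucleotides. A further Meg3 window that RefSeq gives (109545148 to 109545447) held 1 CG and no copy of the hexamer. The Rian window held 0 CG, the Mirg window 10 and the Dio3 window 25, and the last 3 windows held no copy of the hexamer. Across all 32851 RefSeq windows of 300 bases 11.6% held it on either strand, and the median CG count was 7. Of the 47 windows that RefSeq gives for 33 of the 42 members, 11 (23.4%) held it, and their median CG count was 15. Several windows of 1 gene overlap, and Snrpn and Snurf share a window, so these are not independent. The hexamer itself holds a CG, so its share and the CG count are linked, and enrichment of the hexamer was not tested.

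Meg3 (109541001 to 109571726, plus strand, GRCm38, lincRNA) stood at 30.3 RPKM in noDox and 1.30 RPKM in DOX/E14. The log2 fold was −4.54 (SE 0.58), a level 23.2-fold lower and rank 86 among the 3479 falls with a finite fold in that table. Its values in the NLS table were 31.1 RPKM in noDox and 24.7 in NLS, a difference that did not pass (log2 fold −0.33, SE 0.42). Rian (109603940 to 109661716) went from 32.1 to 2.85 RPKM in DOX/E14 (log2 fold −3.49, SE 0.32), and was at 33.0 and 28.2 RPKM in the NLS table (−0.22, SE 0.31). Mirg (109729764 to 109749460) went from 10.2 to 0.673 RPKM (log2 fold −3.93, SE 0.74). In the NLS table Mirg was at 10.5 and 9.58 RPKM (−0.13, SE 0.48). The Mirg span given here, from GENCODE, begins upstream of the RefSeq start whose window is shown. The 3 maternal RNAs were thus 11.3- to 23.2-fold lower in DOX/E14, and in NLS none of them passed.

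Dio3, the deiodinase that inactivates thyroid hormone, lies at the far end of the cluster (110279068 to 110281097). It fell from 7.65 to 1.87 RPKM in DOX/E14 (log2 fold −2.03, SE 0.45), a smaller fold than those of the RNAs, and was at 7.84 and 5.91 RPKM in the NLS table (−0.41, SE 0.47). Rtl1, a retrotransposon-derived gene of the paternal chromosome that is no member, fell with them, from 2.61 to 0.194 RPKM (log2 fold −3.75, SE 0.68). In the tables Rtl1 shares 1 locus with 6430411K18Rik, which ran from 1.95 to 0.0717 RPKM and did not pass, and since the use of strand in counting is not given, reads of an antisense transcript could be included. Dlk1 was not tested, with 0.0556 RPKM in noDox, 1.22 in DOX/E14 and 0.462 for NLS. These falls spanned 740.1 kb from the Meg3 start to the Dio3 end.

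**Figure D2:**
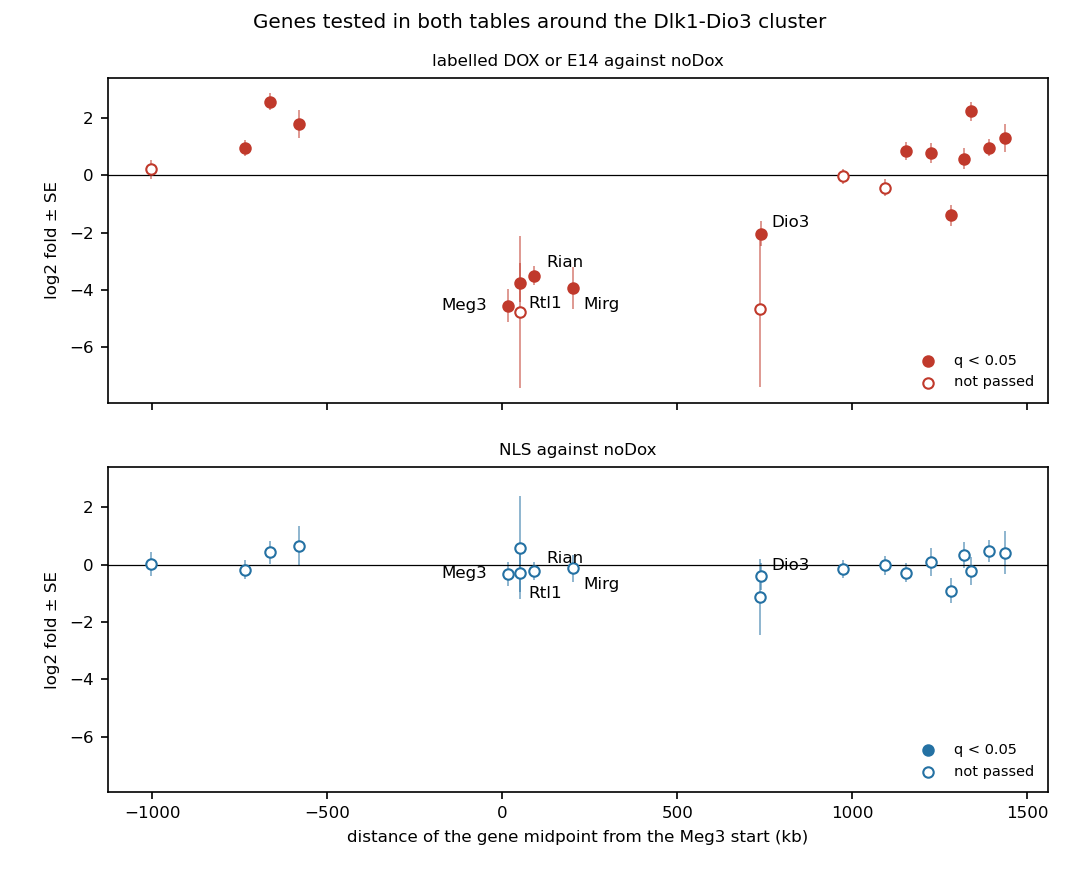
Log2 fold against noDox (± implied SE) of the 20 genes around the Dlk1-Dio3 cluster that were tested in both tables and reached 1 RPKM in a group, microRNA and snoRNA genes left out, by the distance of their midpoint from the Meg3 start. In DOX/E14 Meg3, Rtl1, Rian, Mirg and Dio3 are below −2 and passed, and the unlabelled open points at the same positions are 6430411K18Rik and Dio3os, which did not pass. No gene shown passed in NLS.

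Outside the cluster none of the nearest expressed genes had a fall that passed. Wdr25, Wars and Yy1, on the Dlk1 side, rose in DOX/E14, with Wars, a tryptophanyl-tRNA synthetase, from 11.6 to 69.4 RPKM (log2 fold 2.58, SE 0.30) and Yy1, a zinc-finger regulator, from 20.4 to 39.6 RPKM. On the Dio3 side, Ppp2r5c, a phosphatase subunit, was at 45.5 and 44.5 RPKM (log2 fold −0.03, SE 0.27) and Dync1h1, the dynein heavy chain, at 80.2 and 59.4 RPKM, and neither passed. The nearer genes were chosen by their position after the values were seen, and Mok is named for its call.

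RefSeq places 58 microRNA hairpins with 113 mature names between the Meg3 start and the Dio3 end, and 9 seeds (bases 2 to 8) were shared by more than 1 name. The pair below shares a seed and lies within Mirg, and is shown because Mirg is its host transcript. Capitals mark the seed.
mmu-miR-453: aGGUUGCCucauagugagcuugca
mmu-miR-496a-5p: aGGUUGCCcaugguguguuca

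The tables list 68 short RNA genes in that span, of which 51 were at 0 in all 3 groups and 0 changed in either table. For DOX/E14 8 were tested and 2 had an unadjusted Cuffdiff p under 0.05, and for NLS 16 were tested, again with 2. Mir453 had 477 RPKM in noDox, 63.9 in DOX/E14 and was listed at 0 for NLS, and did not pass in either table, and Mir496a was at 0 in every group. RPKM of genes this short moves with very few reads of the host RNA, so these values say nothing of mature microRNAs, which were not measured.

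The Kcnq1 cluster on chromosome 7 held falls of different size and 1 rise. Kcnq1ot1 (143203458 to 143296549, minus strand) is the paternal noncoding RNA that runs antisense to Kcnq1 and silences genes around it. It fell from 9.45 to 3.14 RPKM in DOX/E14 (log2 fold −1.59, SE 0.28), and in the NLS table it was at 9.70 and 13.9 RPKM (0.52, SE 0.34), which did not pass (q = 0.173 in the authors' deposited table). Tspan32, a tetraspanin of blood cells, fell from 8.93 to 1.03 RPKM (log2 fold −3.11, SE 0.59) and was at 9.15 and 6.34 RPKM in the NLS table (−0.53, SE 0.48). Cd81, another tetraspanin, fell from 229 to 130.4 RPKM (log2 fold −0.81, SE 0.26) and was at 235 and 279 RPKM in the NLS table. Nap1l4, a histone chaperone, rose from 41.6 to 65.1 RPKM (log2 fold 0.65, SE 0.26). Tssc4 was at 16.2 and 20.4 RPKM and did not pass. In the NLS table Nap1l4, at 42.6 and 50.8 RPKM, Tssc4, at 16.6 and 20.9 RPKM, and Cd81 did not pass.

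The protein-coding gene Kcnq1, a potassium channel, was not tested, with 0.141 RPKM in noDox, 0.155 for DOX/E14 and 0.0882 for NLS. Slc22a18, a membrane transporter, was not tested either, at 0.0419, 0.539 and 0.759 RPKM in the same order. Kcnq1 and Kcnq1ot1 overlap on opposite strands, so with the use of strand unstated their reads may be split between them. Beside them, the growth regulators Cdkn1c and Phlda2, which share the cluster and are not members, rose in DOX/E14 from 0.316 to 41.3 and from 0.504 to 78.2 RPKM. In the NLS table neither passed, at 4.10 and 6.16 RPKM.

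Gnas showed the largest rise of any member. It encodes the stimulatory G-protein subunit that couples hormone receptors to cyclic AMP, and its locus makes further transcripts from the maternal or the paternal chromosome. It went from 68.1 RPKM in noDox to 274 RPKM in DOX/E14 (log2 fold 2.01, SE 0.29), a level 4.02-fold higher, and was at 69.9 and 65.1 RPKM in the NLS table (−0.10, SE 0.36). Nespas, the paternal antisense RNA of the locus, had 17.0 RPKM in noDox, 2.70 in DOX/E14 and 14.2 for NLS. Its log2 fold of −2.66 in DOX/E14 came with an SE of 1.53 and did not pass. Gnas (174284320 to 174346744) and Nespas (174281237 to 174295436) overlap on opposite strands of chromosome 2, and a value per gene does not tell the Gnas transcripts apart.

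Several members sit inside an intron of a host gene, where the inner gene is usually paternal and the host is maternal or biallelic. Zrsr1, a retrogene that encodes a relative of the splicing factor U2AF, lies within Commd1, which encodes a regulator of copper transport. Their start windows are shown because the host rose and the inner gene fell in DOX/E14 (RefSeq, GRCm38.p6, capitals as above).
Zrsr1, chr11:22971755-22972054, plus strand: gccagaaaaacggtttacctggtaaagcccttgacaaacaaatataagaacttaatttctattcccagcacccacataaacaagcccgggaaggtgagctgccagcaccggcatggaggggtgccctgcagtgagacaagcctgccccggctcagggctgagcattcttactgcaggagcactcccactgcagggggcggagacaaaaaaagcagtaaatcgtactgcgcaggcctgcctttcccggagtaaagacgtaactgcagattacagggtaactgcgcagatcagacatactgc
Commd1, chr11:22982235-22982534, minus strand: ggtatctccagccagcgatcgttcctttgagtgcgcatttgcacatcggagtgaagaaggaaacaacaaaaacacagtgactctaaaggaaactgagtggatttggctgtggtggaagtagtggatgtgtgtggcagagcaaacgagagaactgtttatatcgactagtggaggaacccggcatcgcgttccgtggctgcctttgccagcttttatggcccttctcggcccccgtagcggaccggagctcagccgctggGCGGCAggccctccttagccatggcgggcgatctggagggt

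Zrsr1 fell from 13.0 to 3.21 RPKM (log2 fold −2.01, SE 0.42) while Commd1 rose from 23.0 to 54.4 RPKM (log2 fold 1.24, SE 0.48). In the NLS table Zrsr1 was at 13.3 and 11.5 RPKM and Commd1 at 23.6 and 24.9 RPKM, and neither passed. The Commd1 window shown held the hexamer once and 18 CG dinucleotides. A further Commd1 window that RefSeq gives (22972817 to 22973116) held 17 CG and no copy of the hexamer. The Zrsr1 window held 10 CG and no copy of the hexamer.

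In the other host pairs only the host passed in DOX/E14, and whether the pairs differed from each other was not tested. Each host and its inner gene, Commd1 and Zrsr1 included, are listed under a shared locus, so reads may be divided between them. H13, the signal peptide peptidase, rose from 10.1 to 24.6 RPKM in DOX/E14 (log2 fold 1.29, SE 0.41), while Mcts2, a retrogene within it, stood at 27.8 RPKM in both groups (log2 fold 0.00078, SE 0.60). Blcap rose from 13.1 to 24.4 RPKM (log2 fold 0.89, SE 0.31). Nnat, the small membrane protein neuronatin encoded in its intron, was at 5.22 and 5.86 RPKM (log2 fold 0.17, SE 0.77) and did not pass. Trappc9, a subunit of a vesicle-tethering complex, fell from 16.9 to 8.96 RPKM (log2 fold −0.92, SE 0.31), and Peg13, the noncoding RNA within it, was not tested, at 0.818, 0.107 and 0.747 RPKM in the 3 groups. In the NLS table H13, Mcts2, Blcap, Nnat and Trappc9 did not pass. The largest of these differences there was that of Nnat, at 5.36 and 9.70 RPKM (log2 fold 0.86, SE 0.86).

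Mest, which encodes an enzyme of the alpha/beta hydrolase fold, overlaps the end of Copg2, a coat protein gene, on the opposite strand. Mest rose from 39.2 to 70.04 RPKM in DOX/E14 (log2 fold 0.84, SE 0.43) and was at 40.3 and 56.1 RPKM in the NLS table. Copg2 was at 27.5 and 19.2 RPKM in the first comparison and 28.2 and 20.3 RPKM in the NLS table, and passed in neither. Airn, the RNA that silences Igf2r on the paternal chromosome, had 3.22 RPKM in noDox, 0.524 for DOX/E14 and 0.507 for NLS. Its log2 folds of −2.62 and −2.70 had SEs of 3.38 and 4.24 and did not pass. Igf2r itself, which Airn overlaps in antisense, was at 15.8, 15.5 and 22.4 RPKM and did not pass in either table.

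In the Snrpn-Ube3a cluster on chromosome 7, the region lost in Prader-Willi and Angelman syndromes in people, members fell or did not pass. Ndn, which encodes the neuronal growth suppressor necdin, fell from 15.4 to 7.05 RPKM in DOX/E14 (log2 fold −1.13, SE 0.35), and was at 15.8 and 19.2 RPKM in the NLS table. Mkrn3, a ubiquitin ligase gene beside it, fell from 5.96 to 2.89 RPKM (log2 fold −1.05, SE 0.38), and was at 6.11 and 7.36 RPKM in the NLS table. Snrpn, which encodes a core protein of the spliceosome, was at 89.2, 77.97 and 100.1 RPKM in the 3 groups. Snurf, read from the same transcript as Snrpn, was at 5.18, 4.63 and 5.48 RPKM, and how shared reads were divided between them is not given.

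Ube3a, the ubiquitin ligase gene that is maternal in neurons and biallelic elsewhere, was at 23.4 and 29.8 RPKM in noDox and DOX/E14 and at 24.0 and 35.9 RPKM in the NLS table. It passed in neither (q = 0.0874 and 0.0719 in the authors' deposited tables). Magel2, a MAGE family gene of the same cluster, was not tested, at 0.0611, 0.355 and 0.346 RPKM. Along this cluster Ndn and Mkrn3 were thus lower in DOX/E14, and Snrpn and Ube3a did not pass. Whether the folds of these genes differed from each other was not tested.

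Peg3, a paternal zinc-finger gene (chromosome 7, 6703892 to 6730431, minus strand), was the only member that passed in NLS. Its level there was 1.69-fold higher, at 13.6 RPKM in noDox and 23.02 in NLS, with a log2 fold of 0.76 (SE 0.31), and the authors' deposited table gave q = 0.00452. In DOX/E14 it rose from 13.2 to 17.7 RPKM (0.42, SE 0.26), with q = 0.0345 in the authors' deposited table, where its fold was rank 3309 of 3335 finite rises. Both comparisons share noDox, so these rises are not independent. Usp29, a ubiquitin protease gene that starts beside Peg3 on the other strand, was at 0.0847, 0.138 and 0.104 RPKM, and Zim1, a zinc-finger gene, at 0.259, 0.426 and 0.900 RPKM, and neither was tested.

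Peg10, a retrotransposon-derived gene needed in the placenta, was among the highest members and passed in neither table, with 222 RPKM in noDox, 190.4 for DOX/E14 and 216 for NLS. Sgce, the epsilon-sarcoglycan gene, starts beside Peg10 in the other direction and fell in DOX/E14, from 6.49 to 3.54 RPKM (log2 fold −0.87, SE 0.42). In the NLS table Sgce was at 6.66 and 9.12 RPKM (0.45, SE 0.46). Ppp1r9a, which encodes neurabin, was at 5.43 and 5.29 RPKM and at 5.58 and 7.07 RPKM, and passed in neither.

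The remaining members stand alone in their clusters. Slc38a4, an amino acid transporter gene, rose from 32.2 to 56.5 RPKM in DOX/E14 (log2 fold 0.81, SE 0.25), Zdbf2, a zinc-finger gene, from 18.02 to 28.4 RPKM (0.65, SE 0.26) and Inpp5f, an inositol phosphatase gene, from 4.67 to 6.56 RPKM (0.49, SE 0.31). Impact, whose protein restrains the stress kinase GCN2, fell from 74.1 to 42.2 RPKM (−0.81, SE 0.25). In the NLS table Zdbf2 was at 18.5 and 28.05 RPKM and Slc38a4 at 33.0 and 47.6 RPKM, and their q values of 0.0571 and 0.100 in the authors' deposited table did not pass. Inpp5f and Impact did not pass there, at 5.39 and 68.4 RPKM in NLS. Rasgrf1, an exchange factor for Ras, was listed at 0 in noDox and DOX/E14 and at 0.0643 RPKM in NLS. Dcn, the proteoglycan decorin of fibroblasts, was at 0.137, 0.183 and 0.522 RPKM, and neither was tested.

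**Figure D3:**
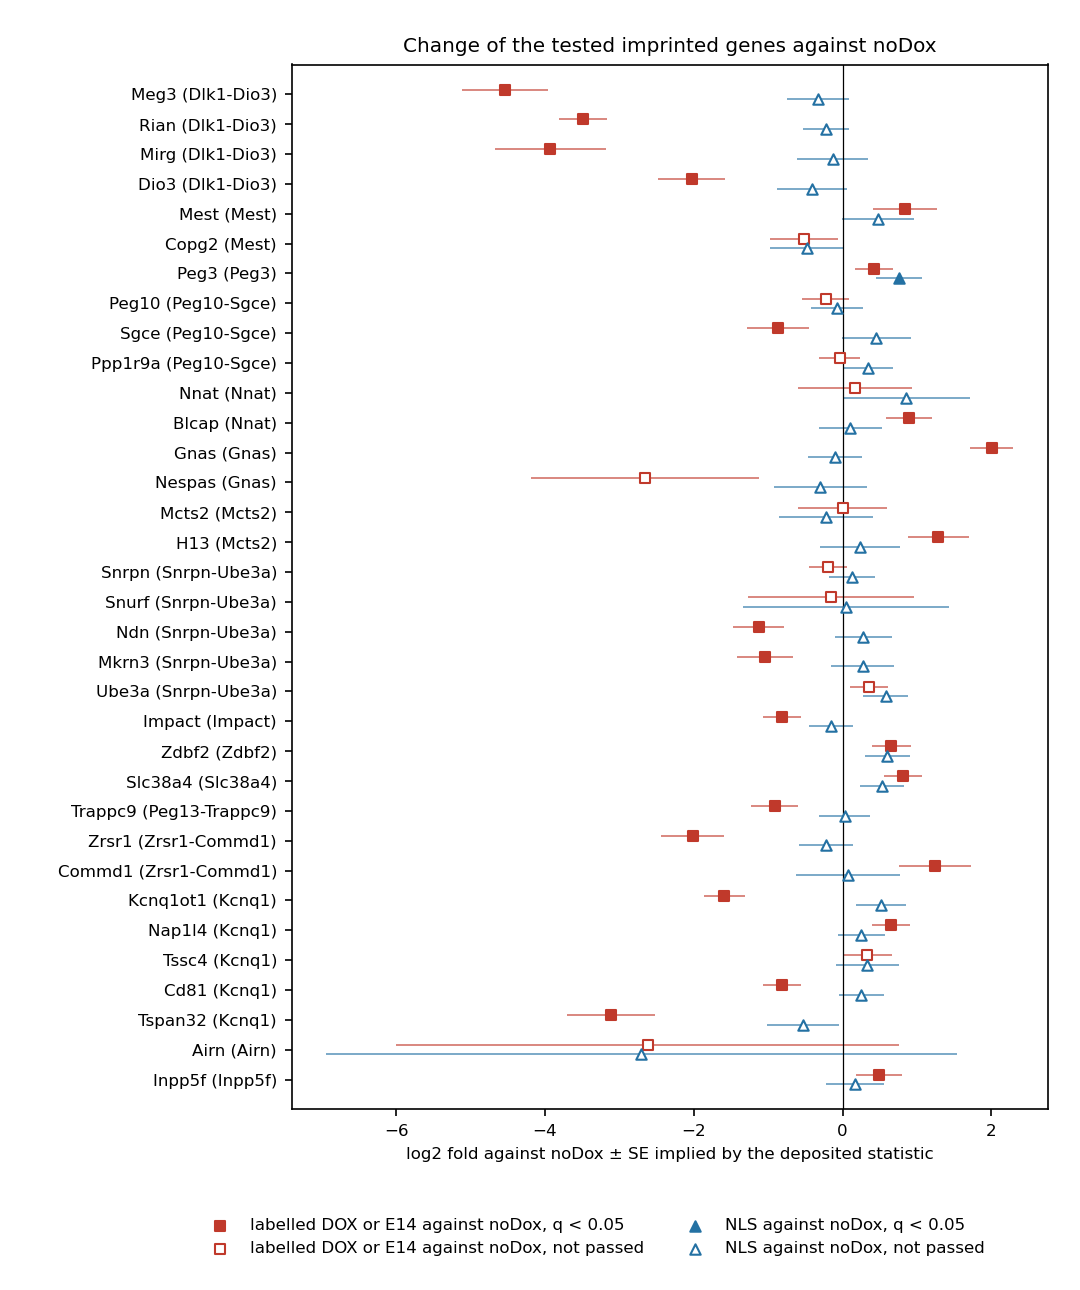
Log2 fold against noDox with the SE implied by the deposited statistic for the 34 tested members, squares for DOX/E14 and triangles for NLS, filled where q was under 0.05. The DOX/E14 squares spread from −4.54 (Meg3) to 2.01 (Gnas), and Peg3 is the only filled triangle.

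Grouped by the allele usually reported as expressed, 13 of 17 maternal genes and 19 of 23 paternal genes were tested. These classes come from general knowledge of mouse imprinting and not from the files, and the maternal class holds genes such as Ube3a that are biallelic in many tissues. In DOX/E14 3 maternal genes rose and 6 fell (23.1% and 46.2%), and 5 paternal genes rose and 7 fell (26.3% and 36.8%), beside 27.2% and 28.3% of all tested genes. Their median log2 folds were −0.52 and −0.22, and that of all tested genes was 0.0075. Both members of mixed or isoform-dependent expression, Gnas and Blcap, rose. In NLS the medians were 0.077 and 0.17. Meg3, Rian and Mirg, neighbours in the same cluster, are among the maternal falls and are not independent. The counts of both classes hold rises and falls in DOX/E14, and RNA levels do not show which allele was read.

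**Figure D4:**
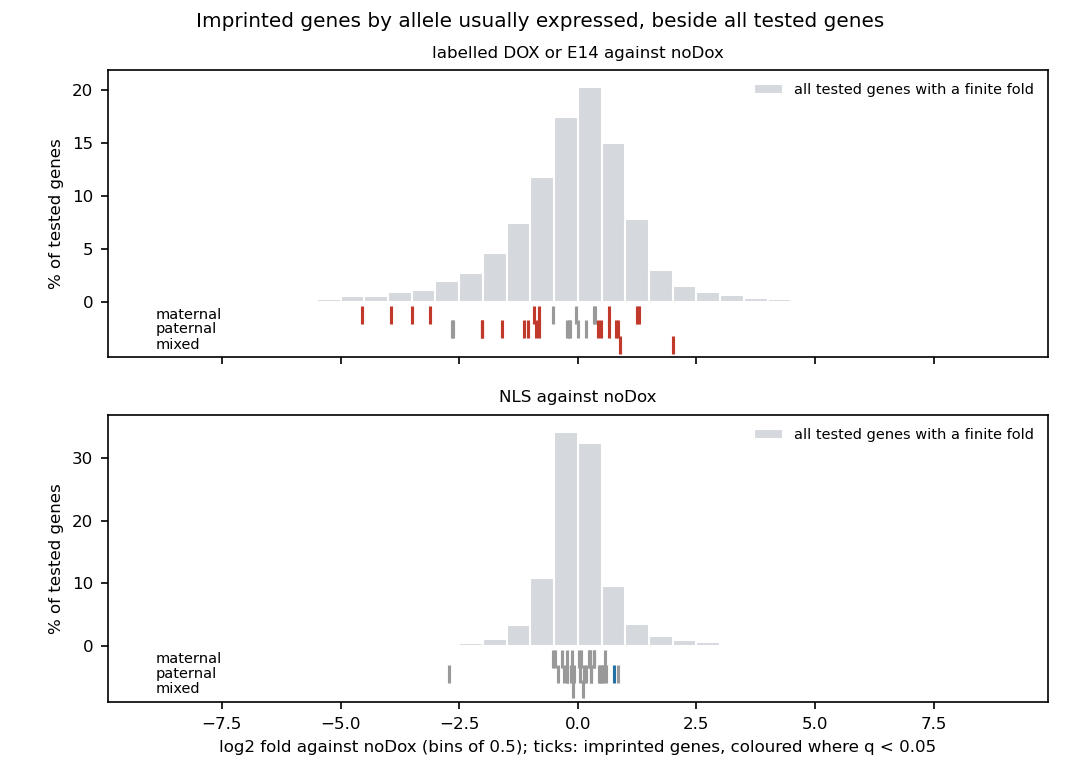
Share of all tested genes with a finite fold per bin of 0.5 log2 fold (grey bars), with ticks for the 34 tested members by the allele usually expressed, coloured where q was under 0.05. The members below −3 in DOX/E14 are Meg3, Rian, Mirg and Tspan32, all of the maternal class.

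Whether a member's fold differed between NLS and DOX/E14 was tested as the difference of its log2 folds over the implied SEs, by a z test on 11907 genes. After Benjamini-Hochberg adjustment at 0.05, 8 of 34 members differed, 7 with the higher fold in NLS and 1 with the lower, or 23.5% beside 13.0% of all genes tested (9.78% higher and 3.18% lower). The NLS fold minus the DOX/E14 fold was 4.21 for Meg3 (SE 0.72), 3.27 for Rian (SE 0.45) and 3.80 for Mirg (SE 0.88). It was 2.58 for Tspan32 (SE 0.76), 2.11 for Kcnq1ot1 (SE 0.44), 1.80 for Zrsr1 (SE 0.56) and 1.41 for Ndn (SE 0.51). For Gnas it was −2.11 (SE 0.46). Dio3 missed the threshold, with a difference of 1.62 (SE 0.65), as did Cd81, with 1.06 (SE 0.40). The other 24 members also missed it, which does not show that their folds were alike. Meg3, Rian and Mirg are neighbours in the same cluster, so the members that differed are not all independent.

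Genes listed for imprint maintenance and DNA methylation moved in both directions in DOX/E14. The list holds DNA methyltransferases and also the Tet genes, whose enzymes act in demethylation. Of 22 listed genes 7 rose and 9 fell, a share of 72.7% beside the 55.5% of all tested genes, and the median log2 fold was 0.11. The largest changes were rises of Dnmt3b, a de novo DNA methyltransferase, from 19.3 to 322 RPKM, Dppa3, which guards methylation in the zygote, from 1.40 to 8.41 RPKM, and the cofactor Dnmt3l from 78.8 to 326 RPKM, and a fall of Arid4a, a chromatin protein, from 16.0 to 3.09 RPKM. ZFP57's gene was at 89.3 and 69.9 RPKM and that of its partner Trim28 at 524 and 719 RPKM, and neither passed. Dnmt1, the maintenance methyltransferase, was at 76.96 and 77.6 RPKM (log2 fold 0.012, SE 0.26). Dnmt3a also rose in DOX/E14, from 10.1 to 32.8 RPKM. Tet1 fell there from 72.2 to 42.2 RPKM, Tet2 from 28.7 to 12.8 and Tet3 from 10.9 to 4.05. In NLS 2 of 21 tested genes rose and 0 fell (9.52% beside 8.36% of all tested genes), Dnmt3l from 80.8 to 221 RPKM and Dnmt3b from 19.8 to 30.8 RPKM, with 5 at an unadjusted Cuffdiff p under 0.05.

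Of 41 other imprinted genes, growth regulators included, 20 were tested in DOX/E14, where 10 rose and 7 fell, or 85.0% beside 55.5% of all tested genes, and 23 in NLS, where 3 rose and 2 fell, or 21.7% beside 8.36%. H19, a maternal noncoding RNA of growth control, fell in DOX/E14, from 6.82 to 0.322 RPKM, and rose in NLS, from 7.01 to 41.1 RPKM. The 4 largest changes in DOX/E14 were a fall of Plagl1, a growth regulator, from 60.1 to 0.145 RPKM, the rises of Phlda2 and Cdkn1c given above, and a rise of Igf2, a growth factor gene, from 0.947 to 42.4 RPKM, and Igf2 rose in NLS as well, from 0.971 to 7.35 RPKM. The median absolute log2 fold of the tested genes of this list was 2.94 in DOX/E14 and 0.99 in NLS, against the members' 0.86 and 0.27. Members and list were separated with earlier results of these data known, so this contrast may follow from that choice.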

How the data were processed

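The submitters' processing notes name mm10, Cuffdiff, TopHat and bcl2fastq 2.17.1. Their annotation, strand setting and other versions are not given in the sources used here. Per the labels' protocols, libraries were directional and depleted of ribosomal RNA. The RPKM values, per the file headers, are 1 pooled value per group, scaled by the authors in each table, so noDox differs 1.026-fold (median) between tables and depth is unknown. The deposited tests, per the file headers, compare the groups of a table. The test statistic (a score), p-value and q-value were also deposited by the authors. A deposited summary of log2 folds was not used.

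Log2 folds were computed from RPKM without a pseudocount, with SE = |log2 fold| / |statistic|. The deposited p-values imply a z 1.41 to 1.42 times the statistic (medians), so this SE is wide. Fold differences between tables were tested by a two-sided z, adjusted by Benjamini-Hochberg, in which noDox, shared by both folds, enters the variance of each. On simulated data of 11907 genes it called 0 of 11707 unchanged genes. It called 2 of 100 genes with a log2 difference of 1 and 76 of 100 with 3. The simulated errors were drawn from the same SEs, with a shared noDox error that cancels, so few false calls were built in. The simulation therefore does not show the error rate on the real libraries.

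Members, lists and tests were chosen with earlier results of these data known. All members are named. From other lists, at most 4 called genes of at least 1 RPKM with the largest folds per table are, plus genes named for their role. Annotation is GENCODE M21 (GRCm38, the build of the files), and 42 of 42 members matched. Of these, 16 lie in 8 loci that the tables give jointly for 2 members, where reads may be shared. Python 3.11.15, pandas 2.3.3 and scipy 1.17.1 were used.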

Additional observations from a re-analysis of the deposited data

How the results depend on the processing

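The alternatives were a stricter q, a minimum fold, a minimum level, another adjustment, pseudocounts and other scalings. Most folds of single members stayed within their SE, but several of the counts moved. With a log2 fold of 1 or more in size asked for beside q, 12 members were called in DOX/E14 (3 higher, 9 lower) in place of 23, and 0 in NLS in place of 1. At q under 0.01 the counts were 20 and 1. With SEs taken from the p-values, only 19 members with a p above the lowest in both tables could be tested, and 1 of them, Mkrn3, differed between NLS and DOX/E14, where 0 of these 19 had differed before. The 8 members that differed are not among the 19. Within 100 kb of a member 23 genes changed in DOX/E14 and 2 in NLS, and within 1000 kb 129 and 23, beside 37 and 4 within 250 kb, since these windows hold other numbers of genes. Of 68 folds, 4 moved by more than their SE under a pseudocount of 1 RPKM (Meg3 to −3.76, Rian to −3.10, Mirg to −2.75 and Tspan32 to −2.29), and none changed sign under any of these settings among those called. Median centring shifted folds by 0.035 and −0.022. No paired analysis was possible because the columns carry 1 pooled value per group, and for the same reason no replicate could be left out.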

Other observations

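Of 212 genes within 250 kb of a member that are neither members nor on the list of other imprinted genes, 69 were tested in DOX/E14, where 26 rose and 11 fell, or 53.6% beside 55.5% of all tested genes. In NLS 78 were tested, and 2 rose and 2 fell, or 5.13% beside 8.36%. Id1, a target of BMP signalling near H13, rose in both comparisons, from 8.17 to 76.9 RPKM in DOX/E14 and from 8.39 to 61.9 RPKM in NLS, which share noDox. Lincpint, a noncoding RNA near Copg2, fell from 7.27 to 0.758 RPKM in DOX/E14, Fam161a, a centrosomal protein gene near Commd1, from 3.12 to 0.752 RPKM, and Adam23, a membrane protein gene near Zdbf2, from 116 to 28.8 RPKM there and from 119 to 73.0 RPKM in NLS. Col1a2, a collagen gene near Sgce, was at 2.46 RPKM in DOX/E14, where it rose, and listed at 0 in noDox. Adamts7, a metalloproteinase gene near Rasgrf1, rose from 2.05 to 4.91 RPKM in NLS, and Bag3, a chaperone partner near Inpp5f, fell from 18.9 to 10.4 RPKM there.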
